A study of Mus musculus with 4 samples.

Results

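Nuclear receptors are transcription factors switched by small lipid-soluble ligands such as fatty acids, bile acids, oxysterols, thyroid hormone, retinoic acid and steroids. Many of them bind DNA as a pair with a retinoid X receptor (RXR), and a ligand exchanges a bound corepressor for a coactivator. In liver they set bile acid, lipid, sugar and drug metabolism, and several orphan members hold the hepatocyte programme. The family is described here through 37 genes, 32 receptors with 3 coactivators and 2 corepressors, out of 37315 gene identifiers in the count tables. They were listed by name, with earlier results of these data known, and each was found by its symbol in the mouse gene annotation. Of the 37, 35 had enough reads to be tested. Vdr, the vitamin D receptor, had 1 and 0 reads in KO libraries and 1 and 0 in WT libraries. Hnf4g, a relative of Hnf4a, had 2 and 7 reads in KO libraries and 9 and 3 in WT libraries.

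The samples were livers of C57BL/6 mice aged 23 weeks, with 2 libraries from Fto knockout (KO) mice and 2 from wild-type (WT) mice. FTO removes methyl groups from adenosine in RNA, and the comparison asks how liver transcripts differ when its gene is knocked out. No treatment is labelled in either group. The labels give neither the knockout allele nor a Cre driver, nor sex, nor whether the 2 libraries of a genotype come from separate animals, so the p-values reflect the spread among these 4 libraries alone, and that spread may be technical. Wherever 2 values are given for a genotype they are those of its replicate 1 and then its replicate 2.

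The libraries held 44689114 and 40947808 counted reads in KO and 41332870 and 39549592 in WT, so 1 read was worth between 0.0216 and 0.0263 CPM (counts scaled to library size). Fto itself (chr8:91313525-91668439, plus strand, mm10) had 13.1 and 12.1 CPM in KO against 41.2 and 33.9 CPM in WT, a log2 fold change of -1.57 ± 0.195 (SE; edgeR adjusted p = 0.0109), which left KO at 33.6% of the WT mean. Because the deleted segment is not given, the remaining reads cannot be assigned to it or to the rest of the gene. The liver label held: 10 hepatocyte markers summed to 102398 and 110908 CPM in KO and 92939 and 100548 CPM in WT.

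Promoter windows of the 3 receptors with the most negative fold changes are shown because each belongs to a family whose members bind DNA at AGGTCA or a close variant of it. The windows are RefSeq sequence of build GRCm38.p6 and run from 250 bases before an annotated transcript start to 50 bases after it. They are printed 5′ to 3′ on the strand of the gene, and the capitals mark the motif named for each. Of the 37 genes, 32 had at least 1 window, 50 windows in all, and Ncoa2, Ncoa3, Thra, Nr3c1 and Hnf4g had none. AGGTCA, sought on both strands, was in 10 of the 50 member windows (20%), spread over 9 genes, against 16.3% of all 32851 windows of the same length. Not every window of these receptors is printed. The middle of 3 Pparg windows (chr6:115362099-115362398, plus strand), not printed, has AGGTCA 9 bases before its start. The first Pparg window (chr6:115360894-115361193, plus strand) has AGGTCA starting 28 bases before the start site.
Pparg upstream: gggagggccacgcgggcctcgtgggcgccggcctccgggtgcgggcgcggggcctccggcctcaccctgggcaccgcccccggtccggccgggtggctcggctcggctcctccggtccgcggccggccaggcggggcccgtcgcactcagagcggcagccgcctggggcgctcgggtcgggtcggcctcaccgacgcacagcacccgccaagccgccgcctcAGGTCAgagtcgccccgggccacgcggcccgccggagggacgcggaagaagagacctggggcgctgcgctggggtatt
The Pparg window furthest downstream (chr6:115421816-115422115, plus strand) has the letters CCAAT at 144 and 22 bases before its start. CCAAT was in 16 of the 50 member windows (32%), against 37.4% of all windows. This Pparg window has no AGGTCA on either strand.
Pparg downstream: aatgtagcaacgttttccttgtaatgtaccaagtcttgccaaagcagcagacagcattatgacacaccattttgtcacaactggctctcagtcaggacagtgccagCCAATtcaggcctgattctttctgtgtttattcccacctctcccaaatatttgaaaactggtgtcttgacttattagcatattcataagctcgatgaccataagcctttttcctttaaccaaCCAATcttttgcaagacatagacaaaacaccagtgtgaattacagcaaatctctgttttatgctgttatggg
The downstream of 2 Rxrg windows (chr1:167618015-167618314, plus strand) has AGGTCA 88 bases before the start. The upstream Rxrg window, not printed, has no AGGTCA.
Rxrg: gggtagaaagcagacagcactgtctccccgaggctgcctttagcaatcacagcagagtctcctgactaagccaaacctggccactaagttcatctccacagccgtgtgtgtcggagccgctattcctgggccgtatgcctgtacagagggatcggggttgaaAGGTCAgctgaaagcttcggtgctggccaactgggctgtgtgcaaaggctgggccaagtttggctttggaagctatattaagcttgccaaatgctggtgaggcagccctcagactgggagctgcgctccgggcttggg
The Rarb window (chr14:16575427-16575726, minus strand) holds GGTTCA and AGTTCA with 5 bases of any kind between them, 53 bases before the start; both strands were searched. This spelling was in 2 of the 32851 windows (0.00609%). It is the retinoic acid response element known from this gene, at which retinoic acid receptors switch on their own family member.
Rarb: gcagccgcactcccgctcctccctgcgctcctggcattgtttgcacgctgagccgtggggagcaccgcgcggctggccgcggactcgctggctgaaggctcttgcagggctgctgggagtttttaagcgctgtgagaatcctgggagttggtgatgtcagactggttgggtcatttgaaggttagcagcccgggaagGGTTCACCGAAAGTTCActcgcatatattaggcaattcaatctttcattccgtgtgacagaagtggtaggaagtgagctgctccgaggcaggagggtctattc
A stretch of letters is a description of the window and does not show that a receptor was bound there in these livers.

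Per kilobase of annotated exon, the level of the family ran from Hnf4a, the orphan receptor that maintains hepatocyte identity, down to Vdr. Hnf4a averaged 168 ± 2.73 CPM per kb in KO and 135 ± 12.4 in WT (SD, n = 2 each). Rxra, the RXR that partners most of the ligand-sensing receptors in liver, came second with 112 ± 22 CPM per kb in KO and 92.3 ± 17.6 in WT. These top members were separate from the next one in both genotypes, and together they made up 41.4% and 41.0% of the summed per-kb level of the family in KO and 37% and 33.9% in WT. Below them came the bile acid receptor Nr1h4 (FXR; 70.5 CPM per kb in KO, 68.1 in WT), the xenobiotic receptor Nr1i3 (CAR; 53.2 in KO, 66.6 in WT) and the fatty acid receptor Ppara (58.6 in KO, 48.1 in WT). Nr1h4 did not separate from its lower neighbour in either genotype: the ranges overlapped with Ppara in KO and with Nr1i3 in WT. Nr1h3 (LXR alpha), Nr1i2 (PXR), Nr0b2 (SHP) and Nr2f6 lay between 16.7 and 43.2 CPM per kb in the single libraries. Of the 36 pairs of neighbours in the order, 18 had overlapping ranges in KO and 23 in WT. Pparg stood at place 25 of 37 in KO and 16 in WT, Rxrg at 27 in KO and 23 in WT, and Rarb at 34 in KO and 32 in WT.

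**Figure D1:**
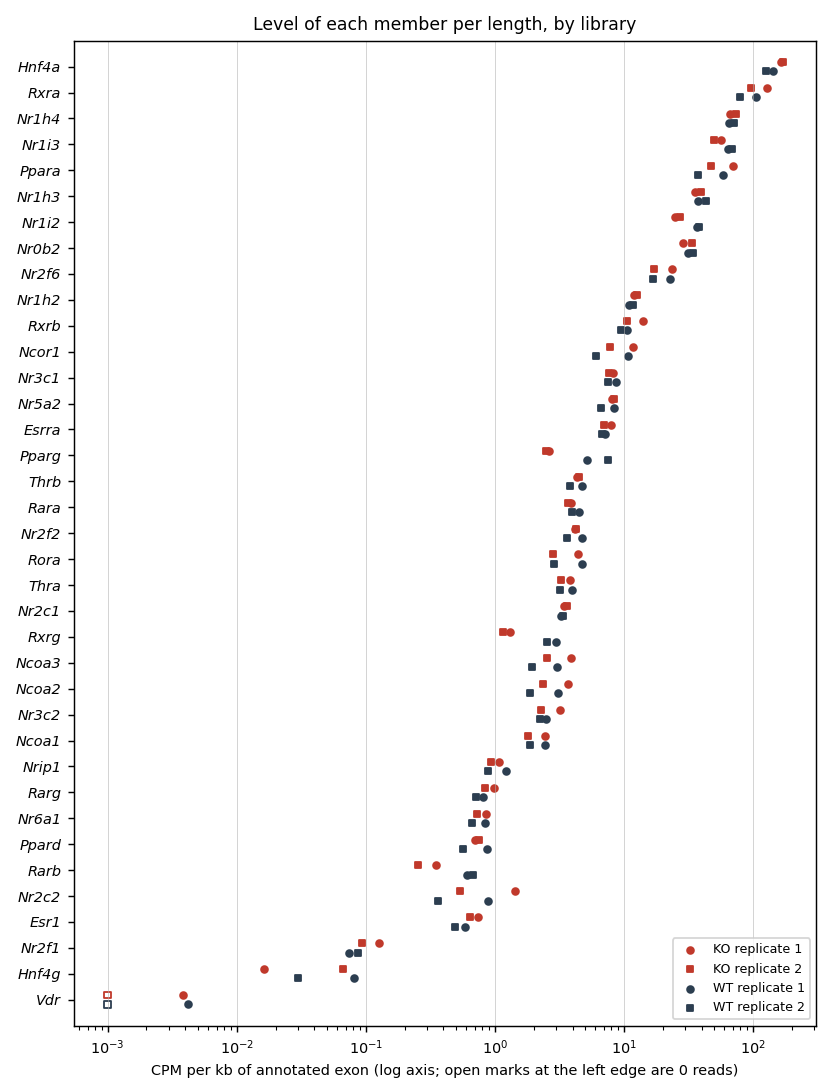
Level of each of the 37 genes in each KO and WT library, in CPM per kb of annotated exon on a log axis, with open marks for libraries with 0 reads. Hnf4a and Rxra lie at the top, and Vdr and Hnf4g, the untested genes, at the bottom.

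In the main fit, which does not pair libraries by replicate number, few members of the family differed between genotypes. A fit with that pairing, described below, called 12 of 35 members (7 higher, 5 lower), beside 2729 of 13836 genes. The counts that follow are without it. Pparg was the 1 tested member called at an adjusted p under 0.05, and it was lower in KO. That is 2.86% of the 35 tested members, beside 1.91% of all 13836 tested genes, a share near the background. Members called higher numbered 0 by edgeR, DESeq2 and limma-voom alike, and 0 members had a positive fold change with an unadjusted p under 0.05; among all tested genes 0.961% were called higher and 0.947% lower. At an unadjusted p under 0.05 there were 4 members (11.4% of those tested, against 13.0% of all tested genes), Pparg, Rxrg, Rarb and Nr1i2, all lower in KO, while 6.48% of all tested genes were lower at that level. The other 31 tested members lay between -0.32 and 0.66 on the log2 scale, and 17 members were within 0.15 of 0. The median log2 fold change of the tested members was 0.05, beside 0.006 for all tested genes, with 22 positive and 13 negative. That median was not stable to single libraries: it was 0.22 without WT replicate 1, 0.10 without KO replicate 2, -0.02 without KO replicate 1 and -0.04 without WT replicate 2.

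By the single libraries, both KO values lay above both WT values for 7 of the 35 members (21.6% of all tested genes did so), namely Rxrb, Rarg, Nr1h2, Hnf4a, Nr2c1, Nr2f1 and Esr1. Both KO values lay below both WT values for 6 (17.1%; 20.4% of all tested genes), namely Pparg, Rxrg, Rara, Rarb, Nr1i2 and Nr1i3. In the remaining 22 the genotypes overlapped. All of these shares are close to those of the whole table.

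**Figure D2:**
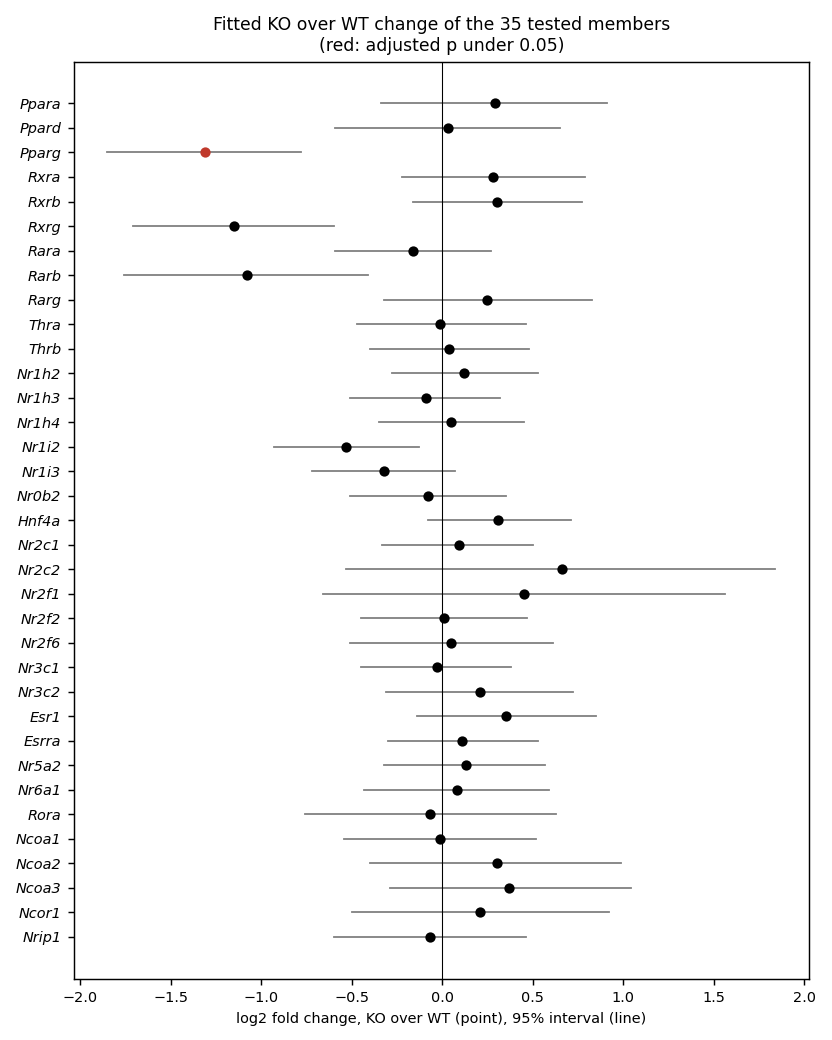
Fitted log2 fold change, KO over WT, of the 35 tested genes, as points with 95% intervals as lines; the called gene is red. Pparg, Rxrg, Rarb and Nr1i2 have intervals wholly below 0, and Nr2c2 has the widest interval, -0.53 to 1.84.

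Among the fatty acid receptors, Pparg was the one that changed. PPARG drives fat storage genes in adipocytes and is normally a minor receptor in hepatocytes, where PPARA, the driver of fatty acid oxidation, predominates. Pparg (chr6:115360951-115490399, plus strand) had 7.77 and 7.32 CPM in KO against 15.4 and 22.1 CPM in WT. Both KO libraries were below both WT libraries, the KO libraries lay close together, and WT replicate 2 was the highest. The means were 7.54 ± 0.314 CPM in KO and 18.8 ± 4.79 CPM in WT (SD, n = 2 each), so KO stood at 40.2% of WT. The log2 fold change was -1.31 ± 0.231 (SE), with a 95% interval of -1.85 to -0.78 (edgeR adjusted p = 0.0352). It was not called when libraries were scaled by their size alone (edgeR adjusted p = 0.0607; over the 13 alternatives the adjusted p ran from 6.53e-13 to 0.0607).

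Ppara had 267 and 183 CPM in KO and 225 and 144 CPM in WT. Its genotypes overlapped, replicate 1 being higher than replicate 2 in both, and its log2 fold change of 0.29 ± 0.27 (SE) was not called (edgeR adjusted p = 0.751). Ppard, the widely expressed member of the trio, had 5.26 and 5.70 CPM in KO and 6.48 and 4.23 CPM in WT, with the KO values inside the WT range. By level per kb, Pparg was 3.61% and 4.87% of the summed PPARs in KO and 8.06% and 16.4% in WT, and Ppara was 95.4% and 93.6% in KO and 90.6% and 82.3% in WT.

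Fat cells, macrophages and hepatocytes all carry Pparg, and in bulk tissue fewer cells of a type and less RNA per cell cannot be told apart. The 9 adipocyte markers other than Pparg, Cidec among them, summed to 34.5 and 53.6 CPM in KO and 60.4 and 106 CPM in WT. Of the 10 list genes 9 were tested. Both KO libraries lay below both WT libraries for 4 of these, Pparg among them, and above for 1 (20.4% and 21.6% of all tested genes). At an unadjusted edgeR p under 0.05, 2 were lower in KO, and 1 was higher. Adipoq, which encodes the fat cell hormone adiponectin, had 0 and 71 reads in KO and 1 and 70 reads in WT. Lep, encoding leptin, had 0 and 36 reads in KO and 0 and 41 reads in WT. These hormone genes were thus high in replicate 2 of both genotypes, whereas the summed list was lower in KO within either replicate number. The log2 ratio of Pparg, KO over WT, was -0.98 within number 1 and -1.6 within number 2, and the part of fat cell transcripts in it was not tested. Kupffer cell markers, those of the liver macrophage, moved the other way: 12 of 14 were higher in both KO libraries and 1 lower (21.6% and 20.4% of all tested genes). Marco and Csf1r were called higher, and the list summed to 538 and 526 CPM in KO against 340.3 and 418 CPM in WT.

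Of the RXRs, 0 were called by edgeR or limma-voom and 1, Rxrg, by DESeq2; Rxrg also had an unadjusted p under 0.05. Rxrg, the RXR best known from muscle and brain and scarce in liver, had 3.03 and 2.67 CPM in KO against 6.79 and 5.88 CPM in WT (chr1:167598384-167639623, plus strand). Both KO libraries lay below both WT libraries, and the log2 ratio was alike within replicate number 1 (-1.16) and number 2 (-1.13). Its log2 fold change of -1.15 ± 0.239 (SE; interval -1.71 to -0.6) did not pass the threshold (edgeR adjusted p = 0.0619). It passed in 6 of 13 alternatives, among them DESeq2 (adjusted p = 0.0133), no filter on low counts (0.00269), and the fits without WT replicate 2 (0.0127) or without KO replicate 1 (0.044); the adjusted p ran from 2.1e-05 to 0.107.

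Rxra had 698 and 528 CPM in KO and 572 and 436 CPM in WT, with overlapping genotypes and a log2 fold change of 0.28 ± 0.217 (SE; edgeR adjusted p = 0.678). Rxrb, the ubiquitous RXR, had 55.6 and 42.2 CPM in KO against 41.5 and 37.7 CPM in WT, both KO libraries being above both WT libraries by a small margin (0.30 ± 0.202 log2, SE; edgeR adjusted p = 0.615). Rxra supplied 89.3% and 89.1% of the summed RXR level per kb in KO and 88.7% and 86.9% in WT, with Rxrg a minor form in both genotypes.

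Of the retinoic acid receptors, which bind all-trans retinoic acid, Rarb had the most negative fold change. Rarb (chr14:16430839-16819156, minus strand) had 85 and 53 reads in KO and 135 and 135 in WT, or 1.84 and 1.32 CPM in KO against 3.18 and 3.55 CPM in WT. The genotypes did not overlap, and KO replicate 2 was the lowest. The log2 fold change was -1.08 ± 0.291 (SE; interval -1.76 to -0.41), not called by edgeR (adjusted p = 0.139; 0.000774 to 0.372 over the alternatives, called in 3 of 13). The span of its gene overlaps that of Top2b on the other strand, which had between 1721 and 2272 reads a library. The library kit does not mark strand. Here and below, overlap with a neighbouring gene is of whole gene spans, introns included, and shared exons were not checked.

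Rara, the main retinoic acid receptor in these livers, had 16.9 and 16 CPM in KO and 19.6 and 17.2 CPM in WT, with a log2 fold change of -0.16 ± 0.184 (SE; edgeR adjusted p = 0.81). Rarg had 4.2 and 3.6 CPM in KO and 3.47 and 3.07 CPM in WT. Rarb is also a gene of the hepatic stellate cell, which stores vitamin A. Of 12 stellate cell markers 7 were lower in both KO libraries and 0 higher, beside 20.4% and 21.6% of all tested genes. Lrat, which esterifies retinol for storage, had the smallest p. Calls numbered 0 by each of edgeR, DESeq2 and limma-voom, while 3 markers reached an unadjusted p under 0.05, all lower in KO. The list summed to 277 and 282 CPM in KO and 291 and 395 CPM in WT, with no marker at 0, and its part in the Rarb values was not tested.

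**Figure D3:**
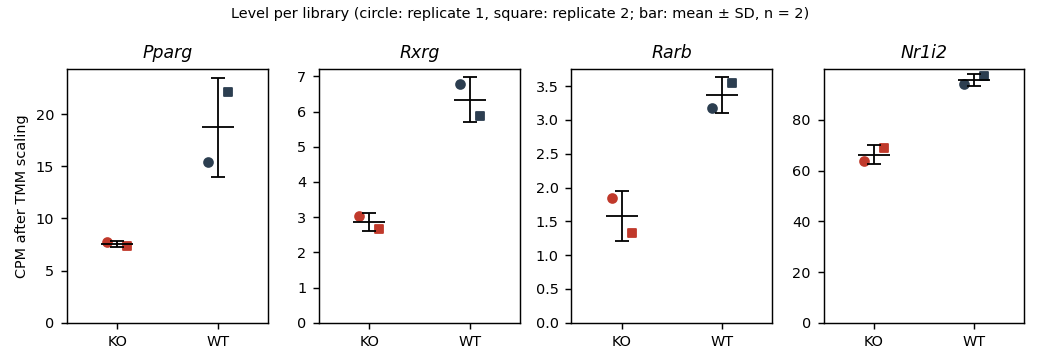
CPM of Pparg, Rxrg, Rarb and Nr1i2 in each KO and WT library, with circles for replicate 1, squares for replicate 2 and bars for mean ± SD (n = 2 each); the y axes start at 0. In every panel both KO libraries lie below both WT libraries.

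The xenobiotic receptors, which sense drugs and bile acids and switch on Cyp2b and Cyp3a enzymes, were both lower in both KO libraries, and neither was called. Nr1i2 (chr16:38248323-38294824, minus strand) had 63.6 and 68.9 CPM in KO against 94.0 and 97.4 CPM in WT. The values of each genotype lay close together, and KO stood at 69.2% of WT. The log2 fold change was -0.53 ± 0.172 (SE; interval -0.93 to -0.13; edgeR adjusted p = 0.225, and 7.55e-07 to 0.722 over the alternatives). Nr1i3 had 248 and 222 CPM in KO against 283 and 305 CPM in WT (-0.32 ± 0.171 log2, SE; interval -0.72 to 0.07; edgeR adjusted p = 0.502). It overlaps Tomm40l on the other strand, which had between 320 and 598 reads a library.

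The bile acid and sterol receptors differed little between genotypes, with 0 calls by each tool and 0 at an unadjusted edgeR p under 0.05. Nr1h4 had 154 and 170.3 CPM in KO and 150.0 and 164 CPM in WT. The 95% interval of its fitted difference among these 4 libraries was -0.35 to 0.45 on the log2 scale (edgeR adjusted p = 0.958). Nr0b2, the repressor that FXR induces to shut down bile acid synthesis, had 32.3 and 38.4 CPM in KO and 35.7 and 39.1 CPM in WT. The oxysterol receptors were as close: Nr1h3 had 90.4 and 99.9 CPM in KO and 94.6 and 109 CPM in WT, and Nr1h2 (LXR beta) had 40.4 and 42.2 CPM in KO and 36.6 and 39.3 CPM in WT. Of these 4 receptors Nr1h2 was the one whose genotypes did not overlap, both KO libraries being slightly above both WT libraries.

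The thyroid hormone receptors overlapped between genotypes. Thrb, the predominant form in liver, had 32.0 and 33.4 CPM in KO and 35.2 and 28.5 CPM in WT (0.04 ± 0.19 log2, SE; edgeR adjusted p = 0.975). Thra had 17.7 and 15.1 CPM in KO and 18.1 and 14.8 CPM in WT. Its span overlaps that of Nr1d1 on the other strand, a clock repressor with 3356 to 5302 reads a library. Shared exons were not checked, so the level of Thra is uncertain.

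Among the steroid receptors, Nr3c1, the glucocorticoid receptor, had 63.1 and 58.9 CPM in KO and 66.6 and 58.0 CPM in WT, with an interval of -0.45 to 0.38 on the log2 scale (edgeR adjusted p = 0.978). Nr3c2, the mineralocorticoid receptor, had 20.6 and 14.6 CPM in KO and 16.1 and 14.4 CPM in WT. Esr1, the estrogen receptor of liver, was a little higher in both KO libraries, at 10.1 and 8.75 CPM against 7.97 and 6.75 CPM in WT, and was not called (0.35 ± 0.211 log2, SE; interval -0.14 to 0.85; edgeR adjusted p = 0.558).

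Hnf4a led the orphan and liver-identity receptors, with 802 and 821 CPM in KO against 695 and 611 CPM in WT (chr2:163506808-163572910, plus strand). Both KO libraries were above both WT libraries, but the log2 fold change of 0.31 ± 0.17 (SE; interval -0.08 to 0.71) was not called (edgeR adjusted p = 0.515). Nr2c2 (TR4) had the largest positive fold change of the family, 0.66 ± 0.511 (SE; edgeR adjusted p = 0.683), from 21.5 and 8.07 CPM in KO and 13.3 and 5.46 CPM in WT. Replicate 1 was far above replicate 2 in both genotypes, and within each replicate number KO was the higher (log2 0.69 within number 1, 0.56 within number 2). With 1 library left out, which unbalances the replicate numbers, the fold change was -0.22 without KO replicate 1, and it was called without WT replicate 1 (1.44; edgeR adjusted p = 0.000566) and without KO replicate 2 (1.18; edgeR adjusted p = 0.00464).

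Among the other tested orphan receptors the genotypes overlapped, except for Nr2c1 and Nr2f1, whose KO libraries were both above the WT libraries. Nr5a2 (LRH-1), a driver of bile acid enzymes, had 47.8 and 49.2 CPM in KO and 49.6 and 39.1 CPM in WT. Nr2f6 had 71.1 and 50.7 CPM in KO and 68.0 and 49.7 CPM in WT, and Rora, a receptor that activates clock genes, had 58.0 and 36.7 CPM in KO and 61.6 and 37.6 CPM in WT. For both of these, replicate 1 was well above replicate 2 in either genotype. Esrra, which drives mitochondrial genes, had 35.1 and 30.9 CPM in KO and 31.2 and 29.8 CPM in WT, and Nr2f2 (COUP-TFII) had 36.2 and 36.6 CPM in KO and 40.8 and 31.2 CPM in WT. Nr2c1 had 15.9 and 16.8 CPM in KO and 15 and 15.7 CPM in WT, and Nr6a1 had 9.28 and 7.95 CPM in KO and 9.1 and 7.2 CPM in WT. Nr2f1 (COUP-TFI) was near the detection limit, with 30 and 19 reads in KO and 16 and 17 in WT.

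Coregulators, which receptors recruit to open or close chromatin, gave 0 calls of 5 by edgeR, DESeq2 and limma-voom, and 0 at an unadjusted p under 0.05. Ncoa3 (SRC-3) had 30.8 and 20.1 CPM in KO and 24 and 15.3 CPM in WT (0.37 ± 0.287 log2, SE; interval -0.29 to 1.04; edgeR adjusted p = 0.678). It overlaps Sulf2 on the other strand, which had 723 and 600 reads in KO against 2008 and 1463 reads in WT. Ncoa2 (SRC-2) had 57.6 and 37.2 CPM in KO and 48.1 and 29.1 CPM in WT, and Ncoa1 (SRC-1) had 20.9 and 15.6 CPM in KO and 20.8 and 16 CPM in WT. Ncor1, the corepressor that unliganded receptors bind, had 149.7 and 101 CPM in KO and 138 and 78.0 CPM in WT (0.21 ± 0.304 log2, SE; interval -0.50 to 0.92; edgeR adjusted p = 0.864). Nrip1 (RIP140), a corepressor of lipid and energy genes, had 12.4 and 10.6 CPM in KO and 14.1 and 10.1 CPM in WT. Opposite-strand partners also overlap Ncor1 (Ttc19 and Pigl), Nr2f6 (Ocel1), Hnf4a (Hnf4aos), Nr2c2 (Mrps25) and Esrra (Trmt112). In each of the 5 coregulators replicate 1 was above replicate 2 in both genotypes.

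That replicate pattern followed transcript length. Over the 35 tested members, the log2 ratio of replicate 2 to replicate 1 correlated with the log2 length of the longest annotated transcript at r = -0.54 in KO and -0.7 in WT, where the points of a genotype share the same pair of libraries. The 7 members with transcripts over 7000 bases (Nr2c2, Rora, Ncoa1, Ncoa2, Ncoa3, Ncor1 and Nrip1) had a median ratio of -0.62 in KO and -0.71 in WT. The 9 members under 2500 bases, Pparg and Rxrg among them, had medians of -0.08 in KO and 0.11 in WT. Across all tested genes the median was -0.01 in KO and 0.02 in WT. The median KO over WT log2 fold change was 0.21 for the long members and -0.01 for the short ones. The part of longest transcript length in the fold changes of the long members was not tested. A fit adjusted for annotated exon length, a different measure, called 1 member, Pparg (-1.28, edgeR adjusted p = 0.0168).

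**Figure D4:**
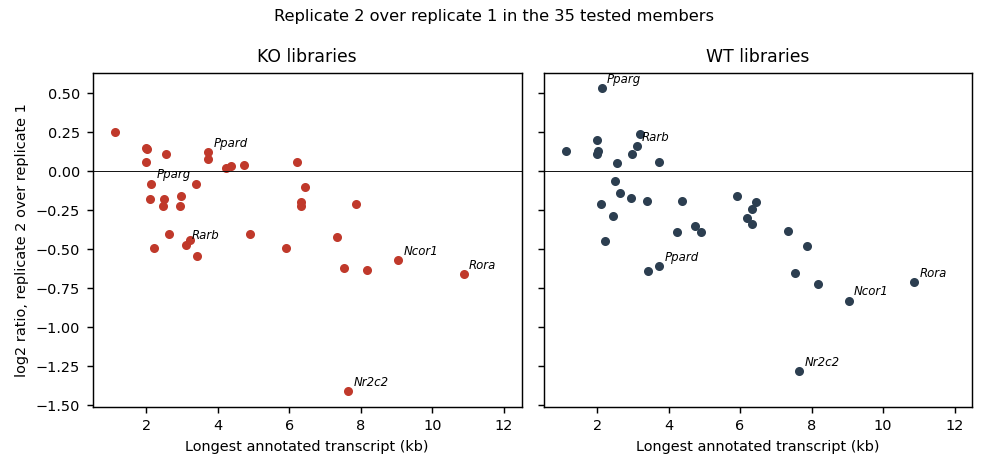
Log2 ratio of replicate 2 over replicate 1 against the longest annotated transcript in kb, for the 35 tested genes, in KO libraries and in WT libraries. Long genes such as Nr2c2 (-1.41 in KO, -1.28 in WT), Rora (-0.66 in KO, -0.71 in WT) and Ncor1 (-0.57 in KO, -0.83 in WT) lie below 0 in both genotypes.

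Nuclear receptors and coregulators outside the 37 were read from companion lists. Of 17 other receptors 9 were tested, 2 were called lower, and 0 higher with each tool or at an unadjusted p under 0.05. Esrrg, a relative of Esrra that drives oxidative genes, had 1.04 and 0.8 CPM in KO against 3.25 and 4.28 CPM in WT (-2.03 ± 0.312 log2, SE; edgeR adjusted p = 0.0223). Nr4a1, an early-response orphan receptor, had 1.34 and 0.925 CPM in KO against 5.73 and 4.02 CPM in WT (-2.10 ± 0.324 log2, SE; edgeR adjusted p = 0.0226, and 0.0598 with library size alone). The 24 further coactivators tested gave 0 calls with each tool, and 1 reached an unadjusted p under 0.05: Ppargc1a (PGC-1 alpha), the coactivator of fasting genes, with 4.97 and 6.05 CPM in KO and 8.3 and 9.54 CPM in WT (-0.69 ± 0.222 log2, SE; edgeR adjusted p = 0.219). Of 18 further corepressors, 0 were called by edgeR or limma-voom and 1 by DESeq2, and 1 had an unadjusted p under 0.05. That gene was Hr, a corepressor of thyroid hormone receptors, with 18 and 20 reads in KO and 70 and 59 reads in WT (-1.85 ± 0.384 log2, SE; edgeR adjusted p = 0.0622; called in 8 of 13 alternatives).

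Genes known to answer these receptors were read from further lists, beside 1.91% called among all tested genes (0.961% higher, 0.947% lower). The lists were chosen with earlier results of these data known, so a share above that background describes the list and is not independent support. Of 26 PPAR target genes 8 were called lower and 0 higher by edgeR, with 15 lower and 1 higher at an unadjusted p under 0.05 and 10 lower and 0 higher by DESeq2; the list median was -0.58 on the log2 scale beside 0.006 for all tested genes. They included Cidea, a lipid droplet protein, with 0.324 and 0.8 CPM in KO against 30.7 and 42.7 CPM in WT (edgeR adjusted p = 0.00115), and Cd36, a fatty acid transporter, with 31.3 and 33.1 CPM in KO against 132 and 175 CPM in WT (edgeR adjusted p = 0.00323). Of 19 CAR and PXR targets 3 were called lower and 0 higher by edgeR, with 9 lower and 1 higher at an unadjusted p under 0.05 and 6 lower and 0 higher by DESeq2. Their median was -0.43, and 12 of them had both KO libraries below both WT libraries, against 1 with both above. Among all tested genes those shares were 20.4% below and 21.6% above. The called genes were Cyp2b9, Cyp2b10 and Cyp2b13, members of a near-identical family whose counts are uncertain. Of 10 tested estrogen receptor targets 6 were called higher and 0 lower by edgeR (0 lower at an unadjusted p under 0.05, by DESeq2 and by limma-voom), with a list median of 1.46. Among them were Lifr, a cytokine receptor subunit (474 and 528 CPM in KO, 199.6 and 199.9 CPM in WT), and Sult1e1, the estrogen sulfotransferase (4.33 and 2.92 CPM in KO, 0.212 and 0.21 CPM in WT).

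In the remaining target lists, called genes numbered 1 of 16 FXR and SHP targets (higher), 2 of 18 LXR targets and 2 of 16 thyroid hormone targets (1 in each direction), 1 of 10 retinoic acid targets (lower), 5 of 20 glucocorticoid targets (1 higher, 4 lower), 1 of 19 HNF4A and NR5A2 targets (higher) and 3 of 17 ROR and REV-ERB targets (2 higher, 1 lower). Beside the 1.91% called among all tested genes, nothing is read from a list with 1 call. Medians of these lists lay between -0.31 and 0.07. The lists share genes, such as Cyp7a1, and many targets answer several regulators, so a list does not measure the activity of its receptor.

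**Figure D5:**
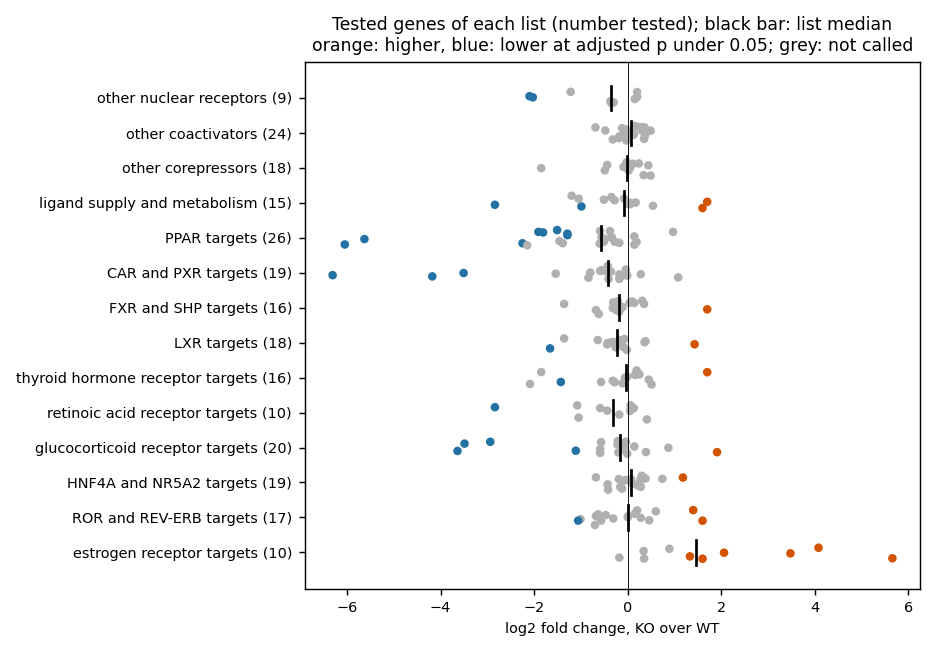
Log2 fold change, KO over WT, of the tested genes of each companion list, with the list median as a black bar, orange for genes called higher, blue for genes called lower and grey for the rest. PPAR targets have a median of -0.58 and estrogen receptor targets one of 1.46. The lists were chosen with earlier results of these data known.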

How the data were processed

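Polyadenylated liver RNA was made into TruSeq v2 libraries, which do not mark strand, and read as paired reads, per the labels' protocols. The authors deposited 1 raw count of reads per Ensembl gene for each of 4 libraries; TopHat2 2.1.1, HTSeq 0.6.0 and build mm10 are named in the submitters' processing notes. The annotation release and the counting options were not given in the sources used here. Symbols, positions and exon lengths came from GENCODE on the same build, which matched 35449 of 37315 identifiers; the rest held 0.143% to 0.194% of a library. No 2 libraries agreed within sampling noise (chi-square per degree of freedom 86.5 to 226).

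edgeR 4.0.16 (R 4.3.3) fitted genotype alone to the deposited counts of all 4 libraries, with TMM scaling, its filter on low counts (minimum count 10, minimum total 15) and the two-sided robust quasi-likelihood test. P-values were adjusted by Benjamini-Hochberg over all 13836 tested genes, and genes were called at an adjusted p under 0.05. CPM are counts scaled to library size after TMM, and level per kb divides them by exon length. Standard errors and 95% intervals are those of the fitted log2 fold change, and values after ± are SDs over 2 libraries unless marked SE. Overlap between genotypes is by single values. The main edgeR fit was tested on simulated counts that held no replicate or length effect. The other fits were not tested that way. Alternatives were DESeq2 1.42.0, limma-voom (limma 3.58.1), other scalings and filters, a replicate block, a length offset and leaving out each library. The length offset used the annotated exon length of a gene, not its longest transcript.

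Any member may be named; full statistics are for members with an unadjusted p under 0.05, for the most abundant member of each role and for those a result turns on, and list genes are the called ones or up to 2 with the smallest p. Exceptions, chosen after their values were seen, are Adipoq and Lep among list genes and, for full statistics, Nr2c2, Rxrb and Esr1 among members. The members and lists were chosen with earlier results of these data known.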

Additional observations from a re-analysis of the deposited data

How the results depend on the processing

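Pparg was lower in KO under all 13 alternatives and called in 12. The number of members called (1) was 0 with library size alone, 2 with DESeq2 (Pparg, Rxrg), 3 with no filter on low counts (Pparg, Rxrg, Rarb) and 2 in each of the 4 fits without a library, with Pparg in all, Nr2c2 without WT replicate 1 or KO replicate 2, and Rxrg without WT replicate 2 or KO replicate 1. A lone library is assumed there to vary like the other genotype. Over all genes the count (264) was 829 with no filter on low counts, 562 with DESeq2, 427 with the length offset and 460 to 633 without a library; the cause was not tested.

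The replicate block called 12 of 35 tested members, beside 2729 of all 13836 tested genes. Of those members 7 were higher, namely Ppara, Rxra, Rxrb, Hnf4a, Nr2c2, Ncoa2 and Ncoa3. The 5 lower ones were Pparg, Rxrg, Rarb, Nr1i2 and Nr1i3. With the length offset added, the block called 11 of 35 members beside 3129 of 13836 genes. Cyp26a1 was not called under the block (edgeR adjusted p = 0.313). Nothing in the labels ties a replicate number to an animal or litter, and only 2 pairs exist; the deviations of same-numbered libraries correlated at 0.4.

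Among the members with full statistics, the direction turned in a fit without 1 library for Ppara (-0.01 to 0.64), Thrb (-0.12 to 0.20), Nr1h4 (-0.03 to 0.12), Nr3c1 (-0.14 to 0.07), Ncor1 (-0.16 to 0.68) and Nr2c2 (-0.22 to 1.44). None of these was called in the main comparison, and Thrb was -0.00 under the replicate block with the length offset. The direction of the remaining members in these fits is not given here. Depth limits Vdr and Hnf4g: the 3 reads that a count of 0 allows are 0.0649 to 0.0788 CPM, for counting error alone.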

Other observations

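Genes that make or remove the receptors' ligands formed a further list. Of 24 listed genes 15 were tested, 2 were called higher and 2 lower in KO, with a median log2 fold change of -0.08. Cyp26a1, which degrades retinoic acid and is itself induced by it, had 7.31 and 8.05 CPM in KO against 79.1 and 30.8 CPM in WT (-2.84 ± 0.415 log2, SE; edgeR adjusted p = 0.0179, and 0.0585 with library size alone). Both KO libraries were far below both WT libraries, which themselves differed widely. Rdh16, a retinol dehydrogenase, had 112 and 122 CPM in KO against 207 and 260.1 CPM in WT (-0.99 ± 0.189 log2, SE; edgeR adjusted p = 0.0468). It was not called with library size alone (edgeR adjusted p = 0.0511), without WT replicate 2 (0.0655) or without KO replicate 1 (0.0742).

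The genes called higher were both sterol hydroxylases of bile acid synthesis. Cyp7a1, the rate-limiting enzyme, had 107 and 134 CPM in KO against 35.3 and 38.9 CPM in WT (1.70 ± 0.196 log2, SE; edgeR adjusted p = 0.00802). Cyp7b1, which acts on oxysterols, had 438 and 447 CPM in KO against 147 and 144 CPM in WT (1.60 ± 0.168 log2, SE; edgeR adjusted p = 0.00564). Both stayed called under all 13 alternatives.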
